A study of Mus musculus with 8 samples.

Results

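Pre-mRNA splicing factors and heterogeneous nuclear ribonucleoproteins (hnRNPs) were followed in IMCD3 cells, an established mouse kidney line of inner medullary collecting duct origin, with and without serum. The genes were taken by name: every non-control probe whose gene name in the scanner files begins with Sfrs, Srsf, Hnrp, Hnrnp, Sf3a, Sf3b, Snrp or Prpf. This gave 147 probes for 70 genes, of 41174 probes for 27553 genes on the array. Of these, 141 probes for 69 genes were bright enough to be tested, meaning that the starved or the unstarved channel was called well above background on each of the 4 arrays. Hnrnpul2 was the gene without such a probe.

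Starved cells had spent 48 h in medium lacking fetal calf serum, which induces ciliogenesis, and unstarved cells grew in medium with 10% serum. The unstarved cells had been split the day before and were subconfluent, so serum and cell density cannot be told apart. RNA of both groups was hybridised together on 4 two-colour arrays, giving 8 samples, 4 starved and 4 unstarved. By the sample labels, arrays 1 and 3 are replicate 1 with the starved RNA in Cy5, and arrays 2 and 4 are replicate 2 with the starved RNA in Cy3. Replicate and dye orientation therefore cannot be told apart. The series text describes the 2 replicates as biological. No label says that they were separate cultures, so p-values measure only the spread between these samples. All samples come from a single established line.

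Splicing removes introns from pre-mRNA in the spliceosome, which is built from small nuclear ribonucleoproteins (snRNPs) and many other proteins. Sm proteins form the ring at the core of U1, U2, U4 and U5 snRNPs, the SF3A and SF3B complexes belong to U2 snRNP, and many PRPF proteins belong to the U4/U6.U5 tri-snRNP or to the complexes that activate it. SR proteins and hnRNPs bind the pre-mRNA and influence which splice sites are used, often with opposing effects.

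Several called probes lie across exon junctions, as judged from genomic intervals in build mm8 that exceed the 60 bases of the probe by at least 50 bases. Of the 147 probes, 21 were of this kind, and they did not all go down. A Scaf11 probe was called higher in starved cells, and those of Srsf5 and Snrpd2 were not called. The 4 shown here were called lower in starved cells, and the capitals mark the ATG at base 2 of the first Snrpf probe.
Snrpf, chr10:93017867-93019341, minus strand: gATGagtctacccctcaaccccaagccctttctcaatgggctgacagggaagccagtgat
Snrpf, chr10:93013285-93013843, minus strand: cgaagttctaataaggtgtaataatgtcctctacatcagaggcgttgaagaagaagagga
Snrpa1, chr7:65948152-65948421, plus strand: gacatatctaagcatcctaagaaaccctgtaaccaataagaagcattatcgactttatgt
Prpf31, chr7:3233816-3233977, plus strand: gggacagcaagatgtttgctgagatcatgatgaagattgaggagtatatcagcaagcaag

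Changes in these genes were small and more often downward than upward. Each gene was represented by its brightest tested probe, and ratios are log2 of starved over unstarved, averaged over the 2 arrays of a replicate and then over the replicates. The ratio was below 0 for 51 of 69 genes (73.9%), against 49.3% of all 16056 genes tested, and the median was -0.13, against 0.0051 for all genes. The ratios ran from -0.64 (Snrpf) to 0.42 (Prpf40b). No gene reached a 2-fold change, and 2 (2.9%) passed 1.5-fold. Among all genes, 4.37% reached 2-fold, all of them called, and 14% passed 1.5-fold. The median absolute ratio was 0.196, near the 0.216 of all genes.

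At an adjusted p below 0.05 (limma over the whole probe table, Benjamini-Hochberg), 6 genes fell and 3 rose, together 9 of 69 (13%). The same test called 30.4% of all genes, 12.8% lower and 17.5% higher, so the share called among these genes was below the background, and the calls alone do not set them apart. At an unadjusted p below 0.05 there were 15 lower and 5 higher. With 2 replicates each probe leaves 1 degree of freedom for its own spread, and the calls lean on a spread shared over all probes. When that shared spread was given a weight of 4 degrees of freedom instead of the estimated 16.5, Snrpf and Snrpa1 were the 2 genes still called, with no rise called (4 rises at an unadjusted p below 0.05), and 14.8% of all genes were called.

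**Figure D1:**
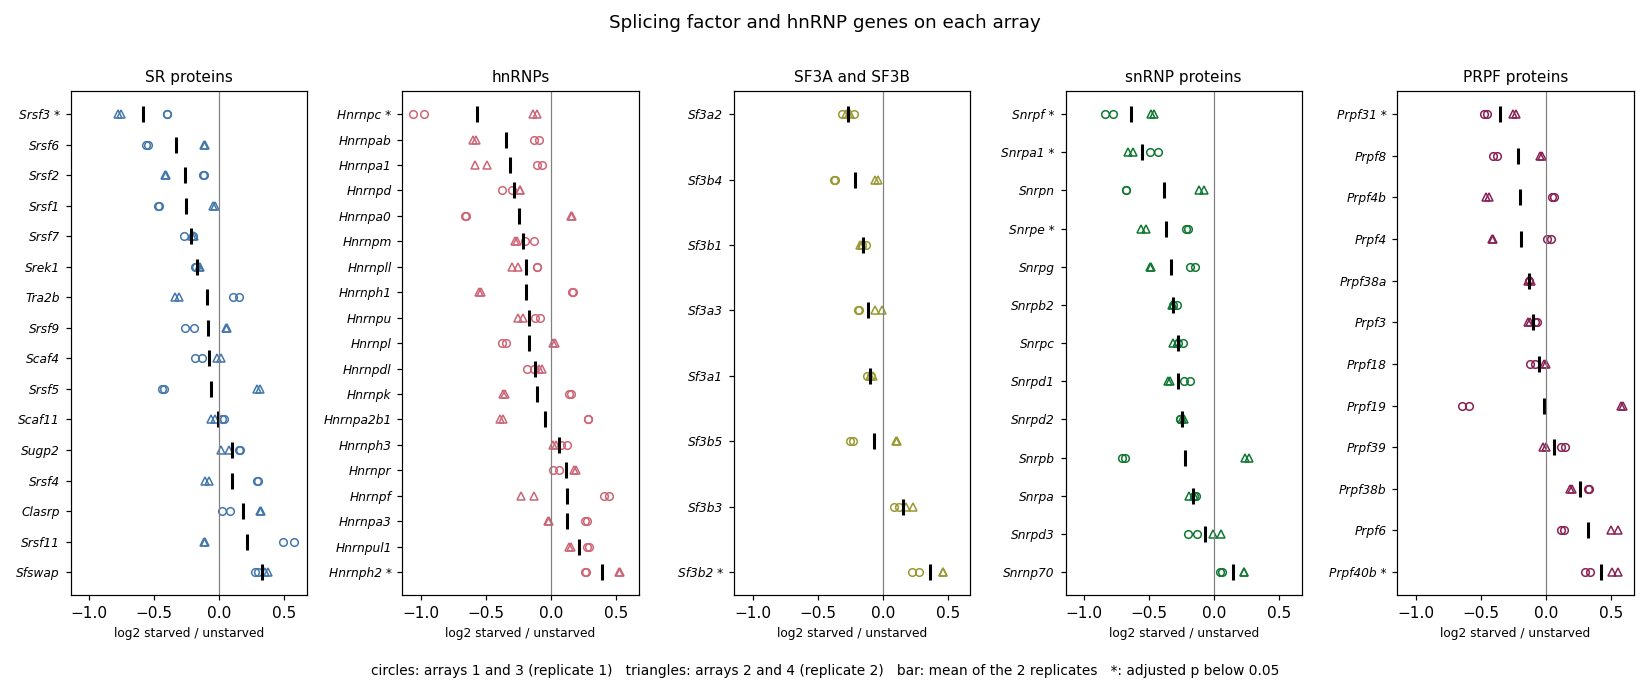
Log2 ratio of starved over unstarved cells (horizontal axis) for the brightest probe of each gene (rows), in 5 panels by family, with 1 gene left out. Circles are arrays 1 and 3 of replicate 1, triangles arrays 2 and 4 of replicate 2, the black bar is the mean of the 2 replicates, and a star marks an adjusted p below 0.05. The 2 arrays of a replicate lie close together, while the replicates of genes such as Prpf19 and Snrpb lie on opposite sides of 0.

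**Figure D2:**
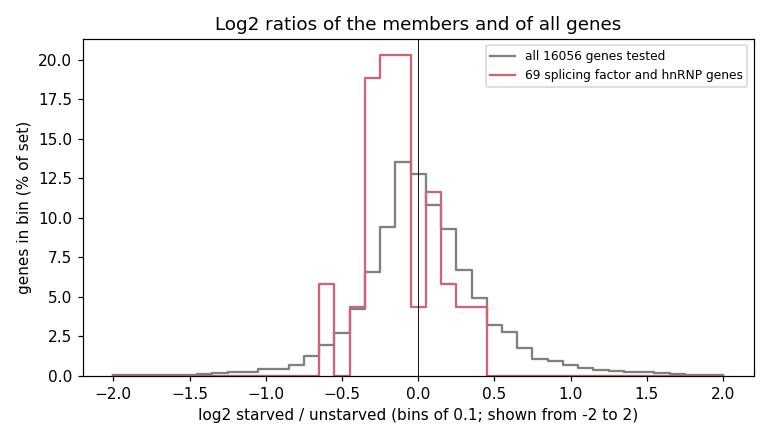
Percent of genes per bin of 0.1 in the log2 ratio of starved over unstarved cells, for the 69 splicing factor and hnRNP genes and for all 16056 genes tested. The members lie between -0.64 and 0.42, and 73.9% of them are below 0.

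The snRNP proteins, grouped by the Snrp prefix of the array name, had the lowest median of the families. Of 13 genes, 12 had a ratio below 0, the median was -0.28, and 3 fell: Snrpf, Snrpa1 and Snrpe. Snrnp70, a protein of U1 snRNP, was the gene above 0, at 0.14. Genes with Snrnp symbols whose array names do not begin with Snrp were not in the group. Snrnp40 was at -0.36 (called lower), Snrnp200 at -0.03, Snrnp48 at -0.01, Snrnp27 at 0.0014, Snrnp35 at 0.04 and Snrnp25 at 0.16. The median is therefore not that of all snRNP proteins.

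Snrpf encodes the Sm ring protein F. Its level in the unstarved samples, as a log2 single-channel intensity, was 16.70, 16.43, 16.67 and 16.46 on arrays 1 to 4, and 15.86, 15.96, 15.90 and 15.97 in the starved samples. Every starved sample was below every unstarved sample. The ratio was -0.64 ± 0.13 (SE, n = 2 replicates; adjusted p = 0.0014). The second Snrpf probe, in another part of the transcript, gave -0.69 (adjusted p = 0.00050).

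Snrpa1 encodes the U2 snRNP protein A′. Its levels were 15.67, 15.68, 15.65 and 15.70 in the unstarved samples and 15.17, 15.06, 15.21 and 15.03 in the starved samples, so the groups did not overlap. The ratio was -0.56 ± 0.13 (SE, n = 2; adjusted p = 0.0032). Snrpe, the Sm ring protein E, was at 15.01, 15.05, 14.95 and 15.24 in the unstarved samples. In the starved samples it was at 14.81, 14.48, 14.73 and 14.71, again without overlap. Its ratio was -0.38 ± 0.13 (adjusted p = 0.041), and in the authors' deposited value table the same probe gave -0.39 with an adjusted p of 0.071.

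The other Sm ring genes were not called at their brightest probe. The ratios were -0.33 for Snrpg, -0.28 for Snrpd1, -0.25 for Snrpd2, -0.22 for Snrpb and -0.07 for Snrpd3. For Snrpb, replicate 1 gave -0.70 and replicate 2 gave 0.25, so the replicates had opposite signs. Snrpn, which encodes a protein nearly identical to the Snrpb product, had a ratio of -0.39 with an adjusted p of 0.051, just above the threshold; whether the probes tell these mRNAs apart was not tested. The U1 genes Snrpa and Snrpc were at -0.16 and -0.28, and the U2 gene Snrpb2 at -0.31.

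Of the 16 genes grouped as SR proteins by the Sfrs prefix of the array name, 11 had a ratio below 0. Their median was -0.08, and Srsf3 fell. The group also holds Clasrp, Scaf4, Scaf11, Sfswap, Srek1, Sugp2 and Tra2b, whose current symbols do not begin with Srsf. The median is therefore not that of the Srsf genes alone. Srsf3 encodes a small SR protein that also takes part in mRNA export. Its levels were 12.02, 12.23, 12.05 and 12.36 in the unstarved samples and 11.61, 11.45, 11.64 and 11.61 in the starved samples. The groups did not overlap, and the ratio was -0.59 ± 0.13 (SE, n = 2; adjusted p = 0.0029). The other Srsf3 probe, designed on a different transcript record, gave -0.03 (adjusted p = 0.90). It was very dim, at 7.79, 7.92, 7.81 and 7.89 in the unstarved samples, and its replicates had opposite signs (0.18 and -0.24). With the 2 probes averaged, the dim one weighing as much as the bright one, the gene was at -0.31 (adjusted p = 0.092).

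Srsf1, Srsf2 and Srsf7 were at -0.26, -0.27 and -0.22 at their brightest probes, without a call. Srsf5 was at -0.07, with -0.43 in replicate 1 and 0.30 in replicate 2. Sfswap, a splicing regulator whose array name carries the Sfrs prefix, had the highest ratio of the family at 0.32 (adjusted p = 0.064).

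Of the 19 hnRNP genes tested, 13 had a ratio below 0, the median was -0.17, and Hnrnpc fell while Hnrnph2 rose. Hnrnpc encodes a core hnRNP that binds uridine tracts in nascent transcripts. Its levels were 14.84, 14.35, 14.75 and 14.40 in the unstarved samples and 13.78, 14.25, 13.78 and 14.26 in the starved samples. The highest starved and lowest unstarved samples nearly met, and the replicates were far apart, at -1.02 and -0.12. The ratio was -0.57 ± 0.17 (SE, n = 2; adjusted p = 0.015), and with the 4 arrays fitted and replicate as a random block the adjusted p was 0.074. The second Hnrnpc probe was steadier, at -0.53 and -0.57 in the replicates (mean -0.55, adjusted p = 0.0031).

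Hnrnph2 encodes an hnRNP that binds guanine-rich sequences. It was at 15.61, 15.45, 15.51 and 15.50 in the unstarved samples and at 15.88, 15.98, 15.78 and 16.02 in the starved samples. All starved samples were higher, with a ratio of 0.39 ± 0.13 (SE, n = 2; adjusted p = 0.030). The Hnrnph2 call was lost with Agilent's processed signals (adjusted p = 0.11), in the authors' deposited values (0.059) and with median centring of the arrays, where the ratio was 0.08. Its close relative Hnrnph1 was at -0.19 and was not called. The abundant hnRNP genes Hnrnpa1, Hnrnpa2b1, Hnrnpd, Hnrnpk and Hnrnpu were at -0.31, -0.05, -0.29, -0.11 and -0.17 at their brightest probes, without a call.

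The 8 SF3A and SF3B genes had a median of -0.10, and Sf3b2 rose. Sf3b2, a subunit of the complex that helps U2 snRNP bind the branch site, was at 16.16, 16.05, 16.08 and 16.06 in the unstarved samples and at 16.44, 16.52, 16.30 and 16.52 in the starved samples. The groups did not overlap, and the ratio was 0.36 ± 0.13 (SE, n = 2; adjusted p = 0.044). The Sf3b2 call was lost without array 1 (adjusted p = 0.052), with processed signals (0.12), in the authors' deposited values (0.067) and with median centring, where the ratio was 0.0027. Sf3b1, the largest subunit of SF3B, was at -0.15 and Sf3a1 at -0.10, neither called.

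Of the 13 PRPF genes, 9 had a ratio below 0 and the median was -0.09. Prpf31, a tri-snRNP protein known for its role in retinitis pigmentosa, was at 16.06, 15.82, 16.03 and 15.83 in the unstarved samples and at 15.60, 15.59, 15.55 and 15.58 in the starved samples. The groups did not overlap, and the ratio was -0.35 ± 0.13 (SE, n = 2; adjusted p = 0.048). The Prpf31 call was lost without array 4 (adjusted p = 0.055), with processed signals (0.054), in the authors' deposited values (0.10), with the filter on dim probes applied in both groups (0.0503) and with median centring (0.89). Its junction probe gave -0.50 (adjusted p = 0.011). Prpf40b rose: it was at 12.03, 11.99, 12.04 and 12.02 in the unstarved samples and at 12.37, 12.50, 12.34 and 12.57 in the starved samples, a ratio of 0.42 ± 0.13 (adjusted p = 0.019). The Prpf40b call was lost with processed signals (adjusted p = 0.088) and with median centring. Prpf8, the large U5 protein at the catalytic centre, was at -0.22 and Prpf3 at -0.10, neither called. Prpf19 was at -0.62 in replicate 1 and 0.58 in replicate 2, with a mean of -0.02.

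Directions were read against other ways of scaling the arrays. With Agilent's own processed signals 7 genes fell and no rise was called (3 rises at an unadjusted p below 0.05), and in the authors' deposited values 4 fell and 1 rose. With each array centred on its median and no loess, no gene was called (3 lower and 0 higher at an unadjusted p below 0.05), and 1.94% of all genes were. The median over the members then was -0.38, against -0.079 for all genes, and 63 of 69 member ratios were below 0. Of the 13 snRNP genes, 12 or 13 were below 0 under each of these scalings.

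Single-channel levels separated the groups more often than the test made calls. For 37 of 69 genes the 4 starved and 4 unstarved samples did not overlap, 27 of them lower and 10 higher in starved cells. Among all genes this held for 51.8%, with 23.5% lower and 28.3% higher. The 37 include all 9 called genes.

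The 2 replicates differed far more than the 2 arrays within them. Over the 141 member probes, Pearson's r was 0.991 between arrays 1 and 3 and 0.992 between arrays 2 and 4, and 0.327 to 0.338 between arrays of different replicates. Over all 24610 tested probes, whose ratios span a wider range, it was 0.797 to 0.803 between replicates. These values are across probes, which are not independent. For 21 of 69 genes (30.4%) the replicates had opposite signs, against 25.1% of all genes. Arrays of one replicate share their dye orientation, and the part of dye in these differences cannot be told apart from the replicate.

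**Figure D3:**
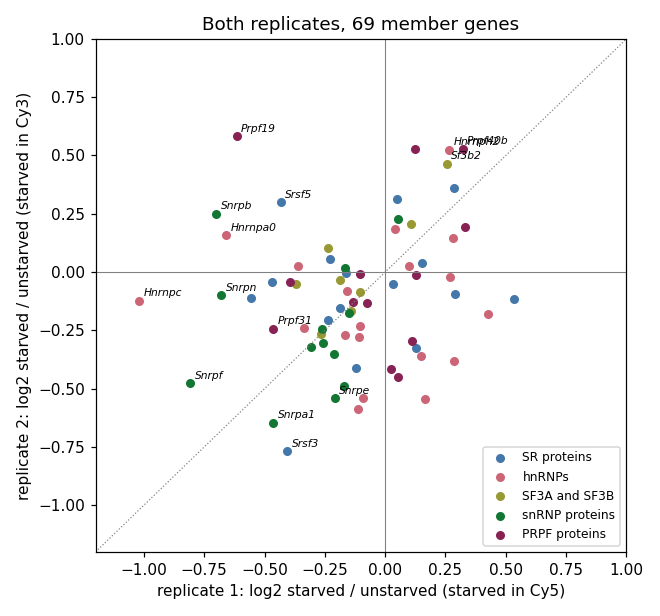
Log2 ratio of starved over unstarved cells in replicate 1 (horizontal axis, starved RNA in Cy5) and replicate 2 (vertical axis, starved RNA in Cy3) for the brightest probe of 69 genes, coloured by family. The dotted line marks equal values. The replicates had opposite signs for 21 genes, with Prpf19 at -0.62 and 0.58.

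Most genes had several probes, and these gave a fuller picture than the brightest alone. Of the 141 member probes 28 were called (19.9%), 21 lower and 7 higher, against 29.5% of all probes tested. They belong to 23 genes (33.3%), near the 35% of all genes with a called probe. No gene had probes called in opposite directions. For 14 of the 23 genes the brightest probe was not the called one.

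Hnrnpa1, one of the most abundant hnRNPs, shows the spread. From the brightest to the dimmest probe the ratios were -0.31, -0.20, -0.45 and -0.71. The last 2 were called, at adjusted p = 0.012 and 0.00037. Both replicates of the dimmest probe were low, at -0.73 and -0.69.

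Genes called lower only at a dimmer probe also included Srsf1 (-0.53), Srsf7 (-0.46), Srsf2 (-0.43 and -0.40), Hnrnpa2b1 (-0.48), Hnrnpab (-0.42), Sf3a1 (-0.45), Snrpb2 (-0.45) and Snrpd1 (-0.40). The Snrpd1 probe was very dim, and its groups overlapped, at 7.30 to 7.91 unstarved and 6.93 to 7.38 starved. Those called higher only at a dimmer probe were Prpf38b (0.59), Snrnp70 (0.52), Scaf11 (0.43) and Srek1 (0.38). At their brightest probes Prpf38b was at 0.26, Snrnp70 at 0.14, Scaf11 at -0.0092 and Srek1 at -0.17, without a call. In 31 of the 45 genes with several tested probes (68.9%) the dimmest probe had the larger absolute ratio, against 44.1% of all such genes. Probe position, transcript form and signal strength differ between these probes, and their part was not tested.

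**Figure D4:**
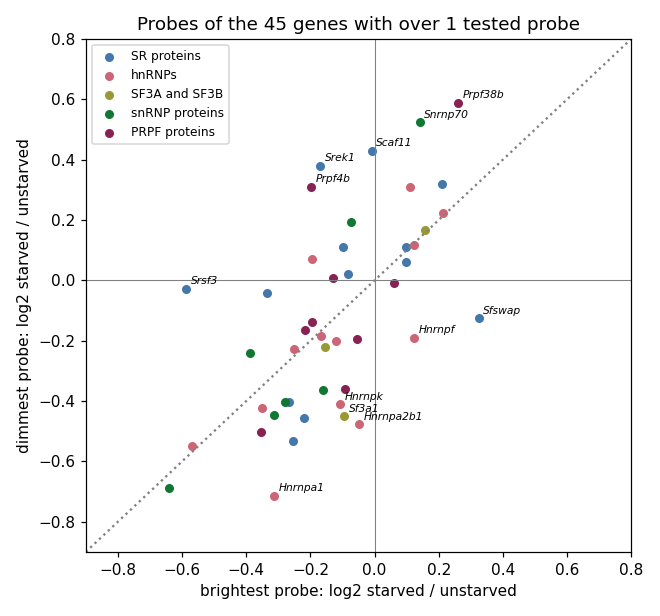
Log2 ratio of starved over unstarved cells at the brightest (horizontal axis) and dimmest (vertical axis) tested probe of the 45 genes with more than 1 tested probe, coloured by family. The dotted line marks equal values, and in 31 genes the dimmest probe was farther from 0, as for Hnrnpa1 at -0.31 and -0.71.

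Other genes of splicing were taken from 6 lists, chosen with earlier results of these data known. Of 153 tested genes 25 fell and 10 rose (22.9% called, against 30.4% of all genes). The SMN and PRMT5 complexes assemble Sm rings on snRNAs. In their list 6 of 16 genes (37.5%) were called, all lower, with a median of -0.24. Among all genes 12.8% were called lower. Smn1, the SMN protein itself, was at -0.67 (adjusted p = 0.00068), and Gemin5, which recognises the snRNA, at -0.63 (adjusted p = 0.0010).

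Of 50 further core spliceosome genes 7 (14%) were called, all lower, with a median of -0.09. This share is near the 12.8% of all genes called lower. Lsm5 and Lsm6, proteins of the Sm-like ring on U6 snRNA, were at -0.70 and -0.58. Of 19 SR-related genes and SR protein kinases 4 (21.1%) were called, all higher, against 17.5% of all genes called higher. They were Srpk3 at 1.53, Srpk2 at 0.81, Clk1 at 0.50 and Clk2 at 0.43, each of which encodes a kinase of SR proteins. The other listed kinases of SR proteins, Srpk1, Clk3 and Clk4, were at -0.13, 0.08 and 0.25, without a call. Srpk3 was the gene of the 6 lists past 2-fold.

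Of 29 hnRNP-type RNA-binding genes 6 fell and 2 rose (27.6% called, against 30.4% of all genes). They included Rbmx at -0.82, Syncrip at -0.61, Cirbp at 0.53 and Pcbp3 at 0.41. Of 23 regulators of alternative splicing 4 fell and 3 rose (30.4% called, the share over all genes). Qk was at -0.60 and Celf4 at -0.59, while Esrp2, an epithelial splicing regulator, was at 0.58 and Rbm47 at 0.49. Of 16 genes of nonsense-mediated decay and the exon junction complex 2 fell and 1 rose (18.8% called). These were Magohb at -0.86, Rbm8a at -0.40 and Upf3b at 0.37.

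Of 14 markers of collecting duct epithelium 13 could be tested, and 6 of them rose and 1 fell (53.8% called, against 30.4% of all genes). For other cell types, 3 of 9 fibroblast, 7 of 8 leukocyte and 2 of 8 endothelial markers could be tested. Among these, 2 fibroblast and 2 endothelial markers fell, and 3 leukocyte markers rose and 1 fell. The shares called were 66.7% for fibroblast, 100% for endothelial and 57.1% for leukocyte markers, each of few genes. In bulk RNA, fewer cells of a type and less RNA per cell cannot be told apart, and the part of these markers in the results was not tested.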

How the data were processed

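RNA (500 ng per sample) was labelled and hybridised to 2-colour Agilent mouse arrays of 60-base probes. The deposited scanner files hold, per the file headers, spot intensity values from Feature Extraction 9.5.3.1, with probe coordinates on mm8. The files of the 2 samples of each hybridisation were identical (4 of 4), and all arrays share a slide and a scan. The authors' deposited value table holds an intensity for each sample. Log2 ratios of starved over unstarved were formed from it within each array and used only as an alternative.

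Intensities were corrected with normexp (offset 50) and normalised by loess within each array, with control and outlier-flagged spots at weight 0, in limma 3.58.1 under R 4.3.3. Signs were turned to starved over unstarved. Arrays of a replicate were averaged and an intercept was fitted over 24610 probes with lmFit and eBayes. Single-channel levels were taken after Aquantile normalisation. Symbols were updated through RefSeq accessions and names. No spot was saturated. Some items are not reported here.

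The members and lists were chosen with earlier results of these data known. Named genes were, per family, up to 4 called falls and 4 called rises at the brightest probe, a fixed set of well-known members, and other called members by ratio. The fit was tested on simulated data. Effect sizes were recovered, and the false-call share was nominal when the shared spread was known. With that spread estimated from 1 degree of freedom per probe, as here, the weight given to it was imprecise and the share of false calls was above nominal, a limit that bears most on adjusted p-values near 0.05. Over the tested probes, same-numbered starved and unstarved samples tended to deviate from their group means in opposite directions (r = -0.33). They share arrays in opposite dyes, so the part of dye in this value cannot be told apart.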

Additional observations from a re-analysis of the deposited data

How the results depend on the processing

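The median over the member genes stayed below 0 under every alternative run. It was -0.38 with median centring, -0.21 with Agilent's processed signals and -0.17 with probes averaged per gene. With an array or a replicate left out it was -0.14 to -0.11. The median over all genes moved too, to -0.079 with median centring, -0.074 with processed signals and -0.0067 with probes averaged. With processed signals the members lay -0.13 from all genes, against -0.14 in the main run. The 6 lower and 3 higher calls became 0 and 0 with median centring (unadjusted 3 and 0), 7 and 0 with processed signals, 4 and 1 in the deposited value table, and 11 and 5 with probes averaged. With the weight of the shared spread set to 4 degrees of freedom, chosen after seeing the data, they became 2 and 0. Leaving out an array gave 6 to 7 lower and 2 to 3 higher.

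Treating arrays 1+2 and 3+4, or 1+4 and 2+3, as the replicates, or fitting a dye term over the 4 arrays, gave 49 lower and 18 higher each time, since nearly identical arrays then set the error. The study's design text describes swapped dyes within pairs, which differs from the sample labels. Replicate as a random replicate block gave 8 lower and 4 higher, as did no replicate block. Crossing the numbers, also chosen after seeing the data, gave 23 and 7.

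No named gene was called in the opposite direction. Of 513 tested comparisons for single named genes, 29 lost a call, 72 gained one and 412 kept their side of the threshold. Every gene that gained a call gained it in both regroupings of the arrays and with the dye term. In those fits nearly identical arrays set the error, so the gains are not to be weighed against the losses. With a replicate left out there is no test, and 5 of 54 ratios had the opposite sign: Prpf19, Snrpb and Srsf5 without replicate 1, and Hnrnpa2b1 and Hnrnpk without replicate 2. With 2 replicates, ratios under about 0.35 were not called at any brightest member probe.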
